A study of Oryza sativa with 8 samples.

Results

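The 52 rice probe sets described here had a strong signal before chilling and a small remnant of it after 24 h at 4 °C. They were chosen from the array values themselves: the lowest of the 4 normal arrays had to be at least 500 signal units and at least 6 times the highest of the 4 cold arrays, over both genotypes. The rule found 52 of 57194 probe sets, which is 0.0909% of the array and 0.742% of the 7004 probe sets whose lowest normal signal was at least 500. The mirrored rule, with cold and normal arrays exchanged, found 179. The difference between cold and normal arrays is therefore what defined the set, and it is given below as a description, with no test.

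The study asked how overexpression of OsTMF bears on the response of rice to cold. Its 8 one-colour Affymetrix arrays held total RNA from shoots and leaves of soil-grown seedlings of the cultivar Zhonghua 11 (ZH11) at the 4-leaf stage, in 4 groups of 2 arrays. OE cold was the OsTMF overexpression genotype after it had spent 24 h at a constant 4 °C in a growth chamber with a daily light and dark cycle, ZH11 cold was the wild type after the same treatment, OE normal was the overexpression genotype before the move, and ZH11 normal was the wild type before it. The overexpression replicates are independent lines, OE-24 as the first and OE-29 as the second in each treatment, so the spread within OE includes the difference between lines. The ZH11 replicates were independent biological ones. The promoter that drives the OsTMF construct is not given in the sources used here, and the level of OsTMF was not analysed here. Normal plants were sampled before the move, so chilling cannot be told apart from 1 more day of age and from the new surroundings.

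Leaves hold chlorophyll in light-harvesting complexes, whose chlorophyll a/b-binding proteins are encoded in the nucleus by a gene family with very abundant transcripts in green tissue. Calcium signals, which follow chilling in plants, are read by CBL proteins, calcium sensors that bind and regulate the CIPK protein kinases. Aquaporins of the TIP class conduct water across the membrane of the vacuole, and homeodomain-leucine zipper proteins are transcription factors found in plants.

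Of the 52 probe sets, 48 were paired with 1 gene and 4 with none. The 48 probe sets stood for 42 genes, of which 41 are annotated as protein-coding and 1, LOC4338157, as a long non-coding RNA. Only 7 of the 42 genes have a name other than a locus number, and these 7 account for 10 probe sets: CAB2R (2 probe sets), RCABP89, RCABP69, CIPK10 (3 probe sets), cdsp32, TIP1-2 and HOX4. The other 35 genes are known here by a locus number, to which no role is given. LOC4345663 had 3 probe sets in the set and LOC4343604 had 2, and probe sets of 1 gene share their transcript and are no independent evidence. By the suffix of their names, 32 probe sets match a single transcript, 7 (_a_at) match several transcripts of 1 gene, 8 (_s_at) match transcripts that may come from several genes and 5 (_x_at) may cross-hybridise, so the gene behind the last 2 classes is uncertain.

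The arrays were alike in overall level, with median signals of 27.4 to 28.2 on the cold arrays and 27.2 to 27.6 on the normal arrays. The green-tissue label was borne out by the small subunit of Rubisco, with signals of 14112.9 to 15004.5 on cold arrays and 14680.4 to 15400.2 on normal arrays. Both meristem markers found lay at 4.4 to 11.8 on all 8 arrays. The 3 root markers found ran up to 280.9 (Lsi1), the 3 seed storage markers up to 452.3 (GLUA2) and the 4 flower markers up to 446 (MADS2). A further green-leaf marker, PORB of chlorophyll synthesis, gave 288.4 to 488.8 on cold arrays and 2757.6 to 2990 on normal arrays, and the remaining ones, CAB2R and LHCP, belong to the set. In such whole-tissue RNA, fewer cells of a type and less RNA per cell cannot be told apart.

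The name by which this set could be called, shut down, goes further than the values. The highest cold signal of the 52 probe sets ran from 23.2 to 1413.3, with a median of 125.6, and lay between the 46.6th and the 95.4th percentile of all probe sets. On the cold arrays only 1 probe set in each OE array and 2 in each ZH11 array were below the median of the array, where the bulk of signals lies. Most of these probe sets were thus above the middle of the array after chilling. On each cold array, however, 33 to 36 of the 52 were below its upper quartile of 160.2 to 170.9. No detection call was used, so whether each transcript was still present was not tested. The probe sets are called sharply lowered here. Signals of different probe sets are not amounts of transcript and are not set against each other.

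**Figure D1:**
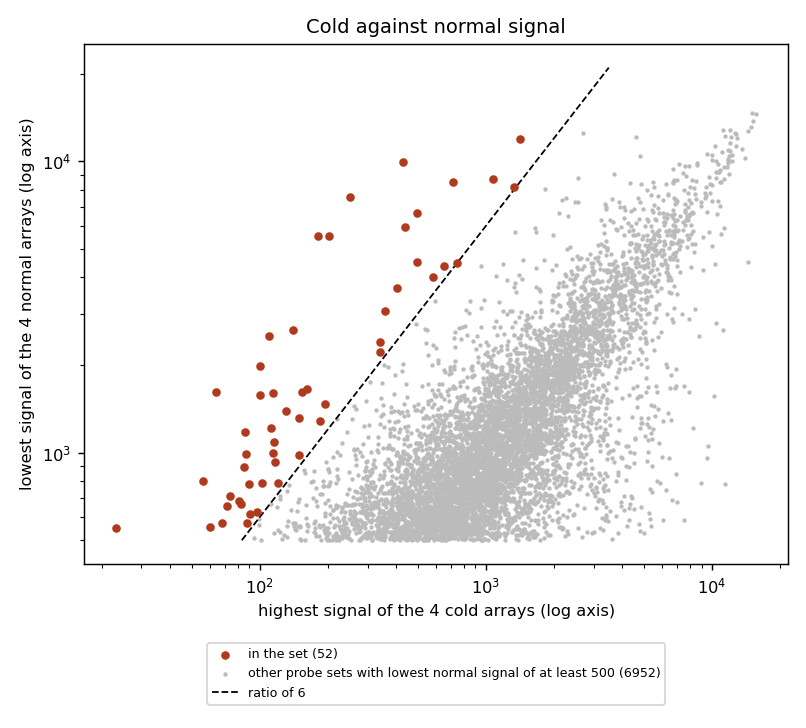
Lowest signal of the 4 normal arrays (vertical, log axis) against highest signal of the 4 cold arrays (horizontal, log axis) for the 7004 probe sets whose lowest normal signal was at least 500. The 52 chosen ones (red) lie on or above the line where the ratio is 6, at cold signals between 23.2 and 1413.3, and the other 6952 (grey) lie below it.

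The ratio of the lowest normal to the highest cold signal had a median of 9.12 and reached 30.7. It was 20 or more for 7 probe sets, 10 to 20 for 15, 8 to 10 for 15 and 6 to 8 for 15. In group means the signal was 6.24-fold to 35.4-fold lower in cold in OE, with a median of 11.3-fold, and 7.04-fold to 48.0-fold lower in ZH11, with a median of 14.7-fold. What was left after cold was therefore 8.87% of the normal signal in OE and 6.81% in ZH11 at the median. The distance was greater in ZH11 than in OE for 38 of the 52 probe sets. The same count over all tested probe sets was not made, and genes such as CIPK10 and LOC4345663 count with several probe sets.

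**Figure D2:**
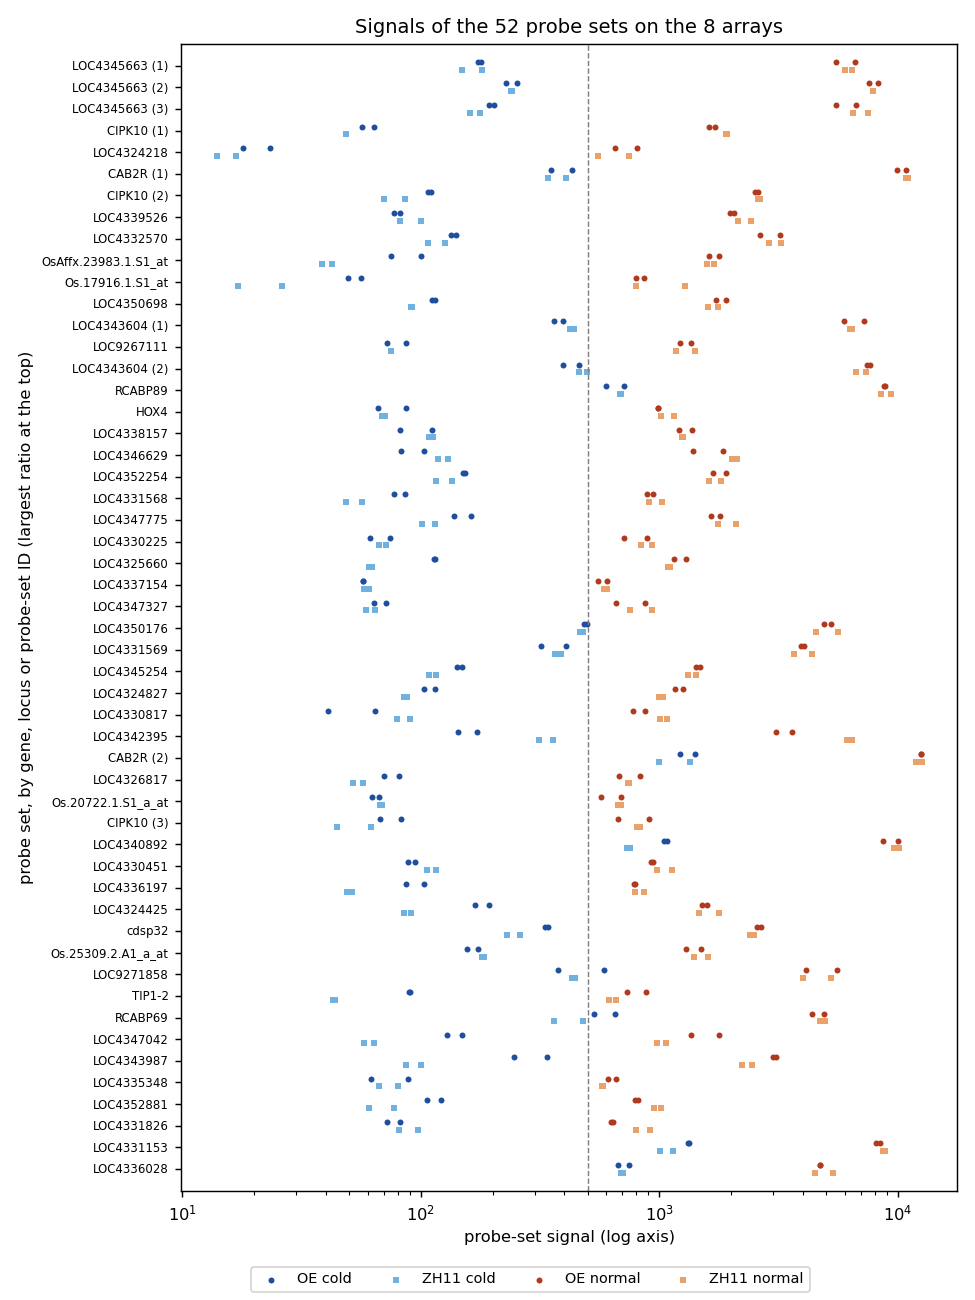
Signal of each of the 52 probe sets on the 8 arrays (log axis), ordered by the ratio of lowest normal to highest cold signal. Blue symbols are cold arrays and red or orange ones normal arrays, with circles for OE and squares for ZH11. The dashed line marks the floor of 500, which all normal signals exceed, while the cold signals span 13.9 to 1413.3.

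Genes of light harvesting formed the largest named group, with 4 probe sets of 3 genes. CAB2R, which encodes a chlorophyll a/b-binding protein of the light-harvesting complex, gave 351.7 and 429.0 in OE cold and 404.8 and 340.7 in ZH11 cold, against 10878.1 and 9972.0 in OE normal and 11032.8 and 10782.9 in ZH11 normal (probe set Os.7941.2.S1_s_at). Every cold array was far below every normal array, and the genotypes overlapped in cold. The signal was 26.7-fold lower in cold in OE and 29.3-fold lower in ZH11. A further probe set of CAB2R (Os.7941.2.S1_a_at) gave 1222.2 and 1413.3 in OE cold and 1339.6 and 995.1 in ZH11 cold, against 12556.5 and 12515.8 in OE normal and 11898.6 and 12657.3 in ZH11 normal, a distance of 9.51-fold in OE and 10.5-fold in ZH11. The probe sets of CAB2R gave the same direction and different sizes.

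RCABP89, also a chlorophyll a/b-binding protein, gave 600.1 and 712.6 in OE cold and 693.4 and 681.5 in ZH11 cold, against 8875.4 and 8731.5 in OE normal and 9392.1 and 8519.4 in ZH11 normal. Its distance was nearly the same in both genotypes, 13.4-fold in OE and 13.0-fold in ZH11. RCABP69, another protein of that family, gave 533.9 and 651.9 in OE cold and 360.8 and 478.7 in ZH11 cold, against 4911.5 and 4357.8 in OE normal and 4719.9 and 4938.6 in ZH11 normal. Here both OE cold arrays were above both ZH11 cold arrays, and the distance was 7.82-fold in OE and 11.5-fold in ZH11.

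The 9 other tested genes of the list of light harvesting, photosystems and Rubisco, 1 probe set each, did not share this size of change. Despite the name of the list, they include PETE, petC and genes named FNR, which belong to photosynthetic electron transport. The rest of the 9 are PSAH, PSAG, PSB28 and the small subunit of Rubisco. None of the 9 is a chlorophyll a/b-binding gene, so no other gene of that family was compared. The list holds named genes only. The 35 genes of the set known by a locus number were thus not screened for this family, and more of them may belong to it. The rule chose the set for large falls, so a smaller change in the others is largely given by it. Counts for cold against normal use limma with Benjamini-Hochberg adjustment over all 34316 tested probe sets and a call at an adjusted p under 0.05, by which 41.7% of the 15841 tested genes were lower in OE cold and 25.6% higher, and 45.2% were lower in ZH11 cold and 25.7% higher. Of the 9 other genes of this list, 5 were lower in OE and 6 in ZH11, and none was higher in either. The median log2 change was -0.38 in OE and -0.37 in ZH11, beside -0.14 and -0.18 over all tested genes. The lowest was PSAG, a subunit of photosystem I, at -2.23 ± 0.11 in OE (limma adjusted p = 5.51e-08, standard error after the sign) and -2.68 ± 0.11 in ZH11 (limma adjusted p = 1.34e-08). The small subunit of Rubisco did not pass the test, at -0.01 in OE and -0.06 in ZH11.

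CIPK10, a protein kinase that works with CBL calcium sensors, was represented by 3 probe sets. The first (Os.8095.1.S3_at) gave 56.9 and 63.9 in OE cold and 48.7 and 48.5 in ZH11 cold, against 1718.1 and 1621.0 in OE normal and 1927.6 and 1901.6 in ZH11 normal. The next (Os.8095.1.S2_at) gave 109.8 and 107.1 in OE cold and 85.4 and 69.8 in ZH11 cold, against 2598.4 and 2513.6 in OE normal and 2651.4 and 2586.6 in ZH11 normal. Both gave OE cold above ZH11 cold without overlap. The last (Os.8095.1.S4_at) gave 67.2 and 82.6 in OE cold and 44.6 and 61.8 in ZH11 cold, against 907.8 and 668.5 in OE normal and 828.8 and 810.0 in ZH11 normal, again without overlap in cold. The signal was lower in cold by 27.6-fold, 23.6-fold and 10.5-fold in OE and by 39.4-fold, 33.8-fold and 15.4-fold in ZH11. A further probe set of CIPK10 missed the floor only, with 15.3 and 26.8 in OE cold and 20 and 14.1 in ZH11 cold, against 543.8 and 495 in OE normal and 602.8 and 557.5 in ZH11 normal.

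CIPK10 stood against the count of its list, which joins the CIPK kinases with the CBL calcium sensors, a different family. Of 28 other tested CBL and CIPK genes, 15 were higher and 8 lower in OE cold, and 15 were higher and 7 lower in ZH11 cold, by the same limma test. The median log2 change of these 28 was 0.33 in OE and 0.54 in ZH11. The largest rise was that of CIPK14, at 2.48 ± 0.16 in OE (limma adjusted p = 4.32e-07) and 3.54 ± 0.16 in ZH11 (limma adjusted p = 3.02e-08). The lowest of the 28 in OE was CIPK12 at -1.23 ± 0.13 (limma adjusted p = 1.77e-05), while the most strongly signalling probe set of CIPK10 lay at -4.37 in OE and -4.82 in ZH11. CIPK10 was chosen for a large fall, so its distance from CIPK12 is in part given by the rule.

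The gene cdsp32 encodes a thioredoxin-type protein of the chloroplast, known in potato as a drought-induced stress protein. Its probe set in the set gave 332.0 and 341.8 in OE cold and 260.1 and 229.5 in ZH11 cold, against 2662.4 and 2573.9 in OE normal and 2401.3 and 2503.5 in ZH11 normal. Both OE cold arrays were above both ZH11 cold arrays, and the distance was 7.77-fold in OE and 10.0-fold in ZH11. A further probe set of cdsp32 outside the set had log2 changes in cold of -1.80 in OE and -1.97 in ZH11, a smaller distance than that of the chosen one. Of 14 other thioredoxin genes, 7 were lower and 2 higher in OE cold, and 8 were lower and 2 higher in ZH11 cold, with median log2 changes of -0.23 and -0.24.

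TIP1-2, a tonoplast aquaporin, gave 89.4 and 90.4 in OE cold and 43.6 and 42.8 in ZH11 cold, against 732.8 and 880.2 in OE normal and 658.0 and 616.3 in ZH11 normal. OE was above ZH11 without overlap both in cold and before it, and the distance was 8.97-fold in OE and 14.7-fold in ZH11. Of 21 other aquaporin genes, 15 were lower and 2 higher in OE cold, and 14 were lower and 2 higher in ZH11 cold. Their median log2 change was -0.90 in OE and -0.48 in ZH11. The lowest in OE was PIP2-4, a plasma membrane aquaporin, at -2.24 ± 0.19 (limma adjusted p = 2.88e-06), and in ZH11 NIP1-1, of another aquaporin class, at -1.19 ± 0.09 (limma adjusted p = 1.36e-06). TIP1-2 lay beyond both, at -2.95 in OE and -3.46 in ZH11, which the rule's demand for a large fall made likely.

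HOX4, a homeodomain-leucine zipper transcription factor, gave 87.0 and 66.0 in OE cold and 70.4 and 68.8 in ZH11 cold, against 986.6 and 988.9 in OE normal and 1014.0 and 1147.8 in ZH11 normal. The genotypes overlapped in cold, and the distance was 12.9-fold in OE and 15.5-fold in ZH11. As with CIPK10, the rest of the list went the other way by count. Of 20 other tested HOX genes, 13 were higher and 2 lower in cold in each genotype, with medians of 0.42 in OE and 0.47 in ZH11. The lowest of these 20 was Hox13, at -0.95 ± 0.12 in OE (limma adjusted p = 7.48e-05) and -0.75 ± 0.12 in ZH11 (limma adjusted p = 0.000375).

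**Figure D3:**
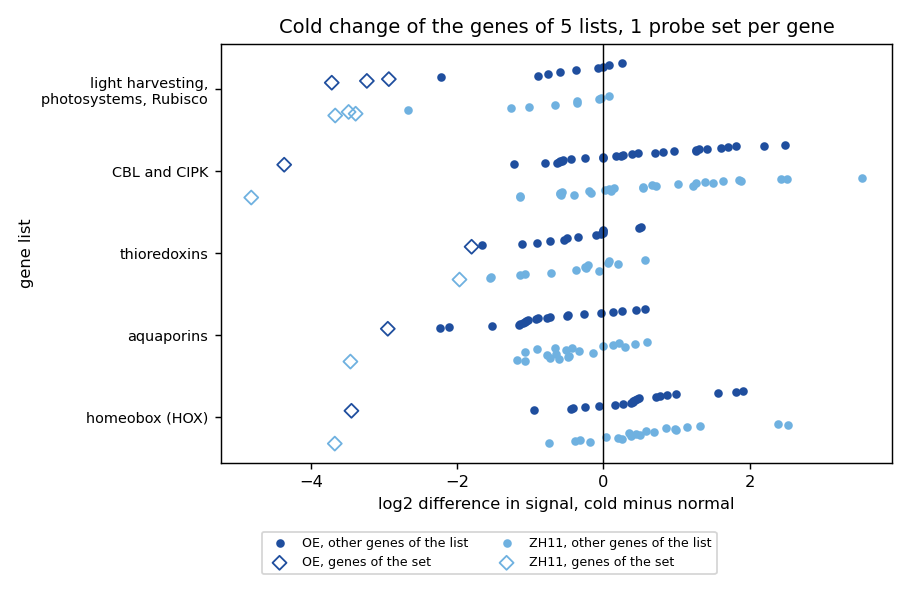
Log2 difference in signal, cold minus normal, of each tested gene in 5 lists, with the probe set of highest mean signal standing for a gene. Dark blue points are OE and light blue points ZH11. Open diamonds are genes of the set, which lie left of all other genes of their list. The rule chose them for a large fall, so this place is largely given by the choice. The other CBL, CIPK and HOX genes lie mostly right of 0. For cdsp32 the diamond is its further, less lowered probe set.

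The largest ratios of all belonged to LOC4345663, whose 3 probe sets headed the order. The first (Os.7890.2.S1_x_at) gave 173.8 and 178.2 in OE cold and 180.5 and 149.3 in ZH11 cold, against 6645.8 and 5533.3 in OE normal and 6013.2 and 6422.7 in ZH11 normal. Its signal was 34.6-fold lower in cold in OE and 37.7-fold lower in ZH11, and the genotypes overlapped. The other 2 were lower by 32.9-fold and 30.9-fold in OE and by 32.8-fold and 41.6-fold in ZH11. LOC4324218 gave 17.9 and 23.2 in OE cold and 16.8 and 13.9 in ZH11 cold, against 652.9 and 803.7 in OE normal and 748.1 and 551.7 in ZH11 normal. Its cold signals lay below the median of every cold array, so that its distances of 35.4-fold in OE and 42.3-fold in ZH11 rest on values in the bulk of dim probe sets.

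LOC4339526 gave 82.0 and 77.2 in OE cold and 81.6 and 100.2 in ZH11 cold, against 2053.6 and 1979.5 in OE normal and 2416.3 and 2148.0 in ZH11 normal, or 25.3-fold lower in OE and 25.1-fold lower in ZH11. LOC4332570 gave 139.9 and 134.2 in OE cold and 107.6 and 125.7 in ZH11 cold, against 3212.7 and 2646.8 in OE normal and 2874.4 and 3252.4 in ZH11 normal, or 21.4-fold and 26.3-fold lower. The genotypes overlapped in cold for LOC4339526 and not for LOC4332570, but neither locus passed the test between genotypes after cold (limma adjusted p = 0.343 and 0.239).

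Of the 4 probe sets with no gene, OsAffx.23983.1.S1_at gave 75 and 99.9 in OE cold and 42.5 and 38.5 in ZH11 cold, against 1613.5 and 1771.8 in OE normal and 1699.6 and 1582.3 in ZH11 normal. Os.17916.1.S1_at gave 55.9 and 49.4 in OE cold and 17.1 and 26.2 in ZH11 cold, against 799.7 and 858.9 in OE normal and 1279.8 and 797.9 in ZH11 normal. Both were higher in OE cold than in ZH11 cold without overlap, with distances from normal of 19.4-fold and 15.8-fold in OE and 40.5-fold and 48.0-fold in ZH11. The remaining pair, Os.20722.1.S1_a_at and Os.25309.2.A1_a_at, was 9.75-fold and 8.44-fold lower in OE and 10.0-fold and 8.19-fold lower in ZH11. Os.17916.1.S1_at on the ZH11 cold arrays was, beside LOC4324218, the only one of the 52 below an array's median.

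Some probe sets of the set had a high normal signal and a high remnant. LOC4340892 gave 1051.2 and 1074.1 in OE cold and 735.1 and 752.1 in ZH11 cold, against 8682.4 and 10053.8 in OE normal and 9640.0 and 10143.5 in ZH11 normal. LOC4331153 gave 1337.6 and 1316.4 in OE cold and 1140.4 and 1008.6 in ZH11 cold, against 8435.4 and 8138.6 in OE normal and 8828.2 and 8713.0 in ZH11 normal. Both had OE above ZH11 in cold without overlap, while before cold OE was below ZH11 for LOC4331153 and overlapped it for LOC4340892. The 2 probe sets of LOC4343604 had OE below ZH11 in cold, and neither passed the test between genotypes after cold (limma adjusted p = 0.219 and 0.244). The first (Os.28216.2.S1_s_at) gave 360.6 and 395.1 in OE cold and 421.8 and 437.6 in ZH11 cold, against 7215.7 and 5956.5 in OE normal and 6418.9 and 6301.6 in ZH11 normal. It was 17.4-fold lower in OE and 14.8-fold lower in ZH11. A further probe set of this locus, outside the set (Os.28216.3.S1_x_at), gave 736.2 and 1244.8 in OE cold and 752.6 and 582.3 in ZH11 cold, with overlap.

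The remaining loci are given by size, so that all 52 probe sets are accounted for. In OE the distance was 16.4-fold for LOC9267111, 16-fold for LOC4350698, 17.4-fold for LOC4346629, 13.3-fold for LOC4338157, 11.8-fold for LOC4352254 and for LOC4330225, 11.3-fold for LOC4331568 and for LOC4347327, 11.5-fold for LOC4347775, 11.1-fold for LOC4324827, 11.0-fold for LOC4331569 and 10.7-fold for LOC4325660. It was 10.3-fold for LOC4350176, 10.2-fold for LOC4330451, 10.1-fold for LOC4337154, 10.0-fold for LOC4326817 and for LOC9271858, 9.96-fold for LOC4345254, 8.45-fold for LOC4335348, 8.22-fold for LOC4331826 and 6.64-fold for LOC4336028. The same 21 loci in ZH11 ran from 7.04-fold (LOC4336028) to 18.5-fold (LOC4350698). The 7 loci still to be named, LOC4343987, LOC4347042, LOC4324425, LOC4336197, LOC4352881, LOC4342395 and LOC4330817, follow with the comparison of the genotypes.

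The edge of the rule ran through a continuous range of values. Just inside by ratio were LOC4336028, with a lowest normal signal of 4486.2 and a highest cold signal of 747.7, a ratio of exactly 6, then LOC4331153 at 6.08 and LOC4331826 at 6.45. Just outside were ADF-11, an actin-depolymerising factor, and OsAffx.20062.1.S1_at, both at 5.98, and LOC4325919 at 5.91. By the floor, LOC4324218 at 551.7, LOC4337154 at 554.2 and Os.20722.1.S1_a_at at 572 were just inside. The further CIPK10 probe set at 495, Os.11796.1.S1_at at 484.3 and CKS1, a small subunit of cell-cycle kinases, at 470.2 were just outside.

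Beyond the rule, the 42 genes had 16 further probe sets, from 10 of the genes. Of these, 12 had enough signal to be tested, and 11 of the 12 were lower in cold in both genotypes, 10 by at least 2-fold on the log2(value + 16) scale. Their median log2 change was -1.76 in OE and -1.77 in ZH11. The share of all tested probe sets that were lower in both genotypes was not counted. By limma, 41.7% of all tested genes were lower in OE cold and 45.2% in ZH11 cold. Several of the 12 share a gene, as those of LOC4330225, LOC4336028 and LOC4343604 do. A gene's probe sets measure the same RNA samples, so the further ones repeat the measurement within arrays and not in new plants. The exception was Os.5869.2.S1_at of LOC4336028, a dim probe set with 28.9 and 28 in OE cold and 46.3 and 39 in ZH11 cold, against 16.3 and 25.2 in OE normal and 13.9 and 14.9 in ZH11 normal. Another probe set of the same locus, Os.5869.1.S1_a_at, went with the set, with 2482.5 and 2686.6 in OE cold and 2149.1 and 2167.6 in ZH11 cold, against 12543.2 and 12735.8 in OE normal and 13655.2 and 12489 in ZH11 normal.

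In the reference order of genes the set was scattered. Only LOC4331568 and LOC4331569 were next to each other, and LOC4347327 and HOX4 were separated by 4 genes, of which the 2 tested had log2 changes of -1.44 to -0.39 in OE and -1.69 to -0.56 in ZH11. The members' adjacent genes that were tested and are not in the set numbered 40. Of these, 17 were lower in OE cold and 18 in ZH11 cold, which is 42.5% and 45% and close to the 41.7% and 45.2% of all tested genes.

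Probe sets that may match transcripts of several genes (_s_at) made up 15.4% of the set and 8.99% of the 7004 with a lowest normal signal of at least 500, and those that match several transcripts of 1 gene (_a_at) 13.5% and 8.88%. Probe sets without a gene made up 7.69% of the set and 14.9% of those 7004. Arrays of a group differed by a median of 0.15 over the set in OE cold, 0.10 in ZH11 cold, 0.13 in OE normal and 0.12 in ZH11 normal on the log2 scale, beside 0.10, 0.09, 0.14 and 0.09 over all tested probe sets. The largest difference between arrays of a group in the set was 0.67, and the smallest log2 distance between cold and normal was -2.63 in OE and -2.74 in ZH11.

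The rule can also be applied to the arrays of 1 genotype. In OE alone it found 69 probe sets and in ZH11 alone 106, and 59 were shared, which is 85.5% of the OE list and 55.7% of the ZH11 list. The lists cross a threshold and their lengths are no test of a difference. For the 106 chosen on ZH11 arrays, the OE arrays, which had no part in the choice, gave signals 2.84-fold to 35.4-fold lower in cold, with a median of 8.44-fold, and all 106 were lower. For the 69 chosen on OE arrays, the ZH11 arrays gave signals 4.55-fold to 48.0-fold lower, with a median of 12.9-fold. Both genotypes had the same treatment. By limma, 41.7% of all tested genes were lower in OE cold and 45.2% in ZH11 cold. The likeness of the genotypes is given as a description and no test.

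The rule did not compare the genotypes. It did use the same arrays, and its limits on both genotypes bound their differences without fixing them. Differences before chilling, after it and in the size of the change were tested with limma over all 34316 probe sets. All 52 passed the filter on low signal. At an adjusted p under 0.05, 1 of the 52 differed between OE normal and ZH11 normal, beside 1.19% of all tested probe sets in either direction and 0.417% in that of this call, lower in OE. This was LOC4342395, with 3616.5 and 3073.5 in OE normal and 6400.0 and 6126.4 in ZH11 normal, a log2 difference of -0.91 ± 0.11 (limma adjusted p = 0.00248). A model with the line as a block within OE called 2, the added one being LOC4347042 at 0.60 ± 0.13 (limma adjusted p = 0.0492), and without OE normal replicate 1 the same 2 were called. OE normal was above ZH11 normal without overlap for 8 of the 52 and below it for 10, beside 17.5% and 16.5% of all tested probe sets. At an unadjusted p under 0.05 in limma there were 10 of the 52. The share of all tested probe sets at that threshold was not counted, so no excess can be read from the 10. The log2 differences ran from -0.91 to 0.60, with a median of -0.05, beside 0.00 over all tested.

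After cold, 17 of the 52 probe sets were higher in OE and 2 were lower, at an adjusted p under 0.05 in limma. Of all tested probe sets, 8.13% were higher and 4.95% lower, 13.1% in either direction. The 17 are 32.7% of the set. OE cold was above ZH11 cold without overlap for 27 probe sets and below it for 9, beside 33.5% and 28.1% of all tested, and 16 overlapped. The median log2 difference was 0.20 over the set, beside 0.01 over all tested. Without ZH11 cold replicate 1 the number called was 12, and 9 of the 19 calls held whichever of the 8 arrays was left out.

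The largest difference was that of LOC4343987, with 339.5 and 246.4 in OE cold and 86.8 and 100.4 in ZH11 cold, against 3080.7 and 2998.6 in OE normal and 2448.5 and 2223.2 in ZH11 normal. OE was above ZH11 without overlap in both treatments. After cold the log2 difference was 1.48 ± 0.13 (limma adjusted p = 0.000134), and before cold it was 0.38, which did not pass the test. Among those higher in OE, LOC4347042 followed, with 148.7 and 128.6 in OE cold and 57.7 and 63.5 in ZH11 cold, a log2 difference of 1.01 ± 0.13 (limma adjusted p = 0.00114). Its normal arrays ran the same way, with 1355.8 and 1786.0 in OE normal and 1066.5 and 979.9 in ZH11 normal.

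LOC4324425 gave 193.6 and 169.1 in OE cold and 91.0 and 85.1 in ZH11 cold, a log2 difference of 0.92 ± 0.11 (limma adjusted p = 0.00066). Its normal arrays overlapped, with 1511.7 and 1580.9 in OE normal and 1787.8 and 1472.7 in ZH11 normal. The probe sets without a gene described above were higher in OE cold by 0.88 ± 0.19 for Os.17916.1.S1_at (limma adjusted p = 0.0167) and 0.86 ± 0.12 for OsAffx.23983.1.S1_at (limma adjusted p = 0.00168). Without ZH11 cold replicate 1, Os.17916.1.S1_at had a limma adjusted p of 0.144, and without OE cold replicate 1 one of 0.0861. With a pseudocount of 64 its log2 difference was 0.45 (limma adjusted p = 0.109).

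Among the named genes, TIP1-2 was higher in OE cold by 0.84 ± 0.11 (limma adjusted p = 0.0011), cdsp32 by 0.44 ± 0.08 (limma adjusted p = 0.00609), RCABP69 by 0.49 ± 0.13 (limma adjusted p = 0.0337) and 1 of the 3 CIPK10 probe sets, Os.8095.1.S2_at, by 0.42 ± 0.09 (limma adjusted p = 0.0161). The other CIPK10 probe sets had log2 differences of 0.24 and 0.40 and did not pass. CAB2R, at 0.06 and 0.18, RCABP89, at -0.07, and HOX4, at 0.10, did not pass either. TIP1-2 kept its call in all 17 alternatives. The call of cdsp32 was lost without ZH11 cold replicate 2 (limma adjusted p = 0.0677), that of RCABP69 without ZH11 cold replicate 1 (0.244) or OE cold replicate 2 (0.181), with quantile normalization (0.0567) and with eBayes without a trend (0.0586), and that of CIPK10 without ZH11 cold replicate 2 (0.13), OE cold replicate 1 (0.0768) or OE cold replicate 2 (0.0569).

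The other 8 higher probe sets in OE cold were LOC4325660 at 0.75, LOC4336197 at 0.74, LOC4352881 at 0.62, LOC4331568 and LOC4340892 at 0.51, LOC4347775 at 0.42, LOC4345254 at 0.34 and LOC4331153 at 0.30. Of these, LOC4325660, LOC4336197 and LOC4340892 kept the call whichever array was left out. LOC4352881 lost it without ZH11 cold replicate 1 (limma adjusted p = 0.0754), and LOC4331568, LOC4347775, LOC4345254 and LOC4331153 lost it without any 1 of 2 to 4 cold arrays, with limma adjusted p-values of up to 0.122, 0.225, 0.169 and 0.143. LOC4331153 also lost it with eBayes without a trend (limma adjusted p = 0.0559). The 2 lower ones were LOC4342395, with 143.1 and 171.8 in OE cold and 314.0 and 358.3 in ZH11 cold, at -1.02 ± 0.11 (limma adjusted p = 0.000383), and LOC4330817, with 64.1 and 40.7 in OE cold and 89.9 and 79.5 in ZH11 cold, at -0.58 ± 0.15 (limma adjusted p = 0.0307). LOC4342395 was lower in OE by a like amount before cold. The call of LOC4330817 was lost without any 1 of 3 cold arrays, with a limma adjusted p of up to 0.194 without ZH11 cold replicate 1, and with a pseudocount of 64 (-0.36, limma adjusted p = 0.0543).

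**Figure D4:**
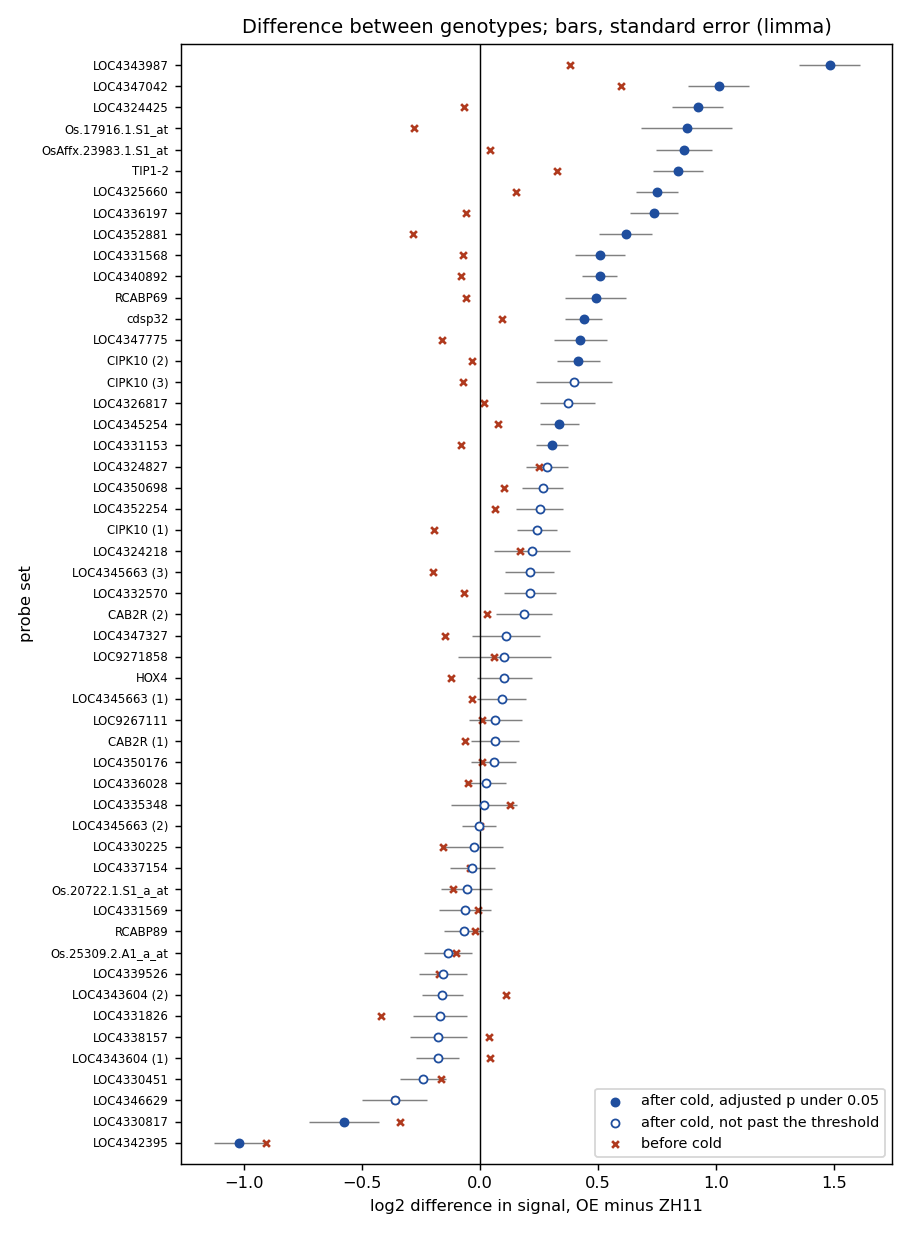
Log2 difference in signal, OE minus ZH11, for the 52 probe sets after cold (circles, with the standard error from limma as bars) and before cold (crosses). Filled circles passed an adjusted p under 0.05, 17 to the right of 0 and 2 to the left, and the crosses lie mostly near 0.

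The cold change itself differed between genotypes for 5 of the 52, beside 1.14% of all tested probe sets, and in all 5 the cold change in OE less the one in ZH11 was positive, that is, OE retained more of its normal signal (0.731% of all tested were called in that direction). LOC4343987 was 10.4-fold lower in cold in OE and 25.0-fold lower in ZH11, a log2 difference of the changes of 1.10 ± 0.18 (limma adjusted p = 0.0201). LOC4324425 was 8.53-fold lower in OE and 18.5-fold lower in ZH11, a difference of 0.99 ± 0.15 (limma adjusted p = 0.0137). LOC4352881 gave 105.9 and 121.1 in OE cold and 60.4 and 77.0 in ZH11 cold, against 816.9 and 787.1 in OE normal and 947.9 and 1014.0 in ZH11 normal, a difference of 0.90 ± 0.16 (limma adjusted p = 0.0265). In that locus OE was above ZH11 after cold and below it before, without overlap in either. With 1 array left out, the highest limma adjusted p was 0.129 for LOC4343987 and 0.135 for LOC4352881, both without ZH11 cold replicate 1, and 0.0826 for LOC4324425, without ZH11 cold replicate 2.

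LOC4336197 gave 102.7 and 86.9 in OE cold and 49.0 and 51.6 in ZH11 cold, against 792.8 and 784.7 in OE normal and 858.5 and 790.9 in ZH11 normal, a difference of the changes of 0.80 ± 0.14 (limma adjusted p = 0.0276). LOC4340892, whose values stand above, was 8.82-fold lower in OE and 13.3-fold lower in ZH11, a difference of 0.59 ± 0.11 (limma adjusted p = 0.0285). Without ZH11 cold replicate 1 their limma adjusted p-values were 0.153 and 0.154. Each lost its call under 8 of 17 alternatives, which included a pseudocount of 64 for LOC4336197 (limma adjusted p = 0.0651), and quantile normalization (0.0733) and eBayes without a trend (0.0929) for LOC4340892. Over the set the difference of the changes was positive for 40 of 52, with a median of 0.18, beside 0.01 over all tested probe sets. The share that was positive over all tested probe sets was not counted. Among probe sets with a lowest normal signal of at least 500, the median was 0.23 for ratios of normal to cold of 3 to 4. It was also 0.23 for ratios of 4 to 6, so the lean was not particular to the set. The number called moved when 1 array was left out. None was called when ZH11 normal replicate 1 was left out, a count of 0, and 0 with ZH11 cold replicate 1 left out (limma, 17 at an unadjusted p under 0.05 in each), 1 without ZH11 cold replicate 2, 2 without OE normal replicate 2, and 3 without ZH11 normal replicate 2, OE normal replicate 1 or OE cold replicate 2. The share of all tested probe sets at an unadjusted p under 0.05 was not counted here either. With all arrays, the largest difference among those not called was that of Os.17916.1.S1_at, at 1.16 ± 0.27 (limma adjusted p = 0.0804).

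Higher signals in OE cold, and calls for the difference of the cold changes, were also found outside these 52. Among probe sets with a lowest normal signal of at least 500, the share called higher in OE cold was 10.5% where the ratio of lowest normal to highest cold signal was under 0.5, 6.46% for ratios of 0.5 to 1, 16.3% for 1 to 2, 27.6% for 2 to 3, 35.0% for 3 to 4, 30% for 4 to 6 and 32.7% for the set. The share called lower was 17.6%, 7.05%, 5.98%, 7.93%, 5.13%, 4.29% and 3.85% in the same order of ratios. The difference of the cold changes was called for 9.62% of the set, and for 10.3% of the probe sets with ratios of 3 to 4 and 10% of those with ratios of 4 to 6. Probe sets just short of the rule thus had about the same shares as the set. Both measures use the cold arrays, so these shares are a description.

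**Figure D5:**
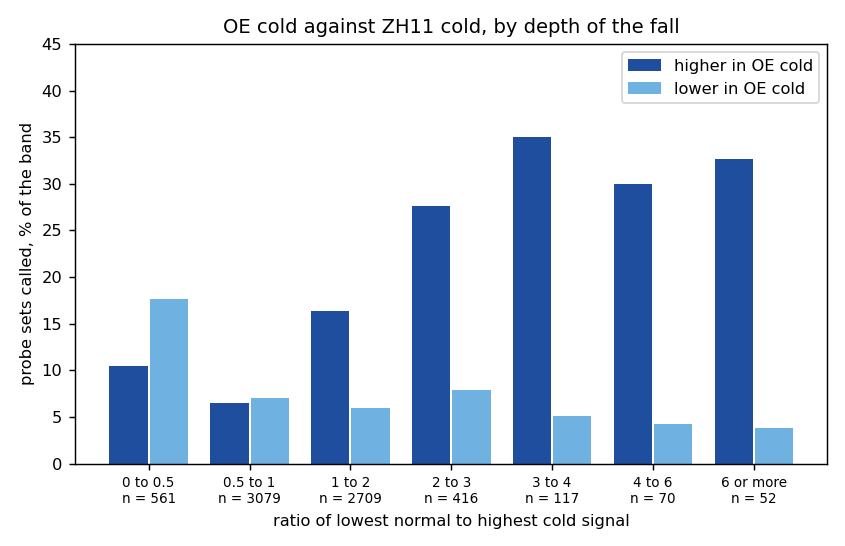
Share of probe sets called higher (dark bars) or lower (light bars) in OE cold than in ZH11 cold, in percent, by the ratio of lowest normal to highest cold signal, for the probe sets with a lowest normal signal of at least 500. The share called higher is 27.6% to 35.0% in the 4 groups with ratios of 2 or more, the last of which is the set of 52.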

How the data were processed

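Each deposited value is the intensity of a probe set on an array, on a linear scale. How the authors summarised and normalized it is not given in the sources used here. Genes came from the platform annotation, with names updated from a reference table (assembly ASM3414082v1) that held all 42 genes of the set. Promoters were not analysed here.

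Values were taken to log2(value + 16). Probe sets whose mean log2 value lay above the 40th percentile, 34316 in all, were fitted by group means with limma 3.58.1 (lmFit, then eBayes with its trend option; R 4.3.3), with 4 residual degrees of freedom. P-values are two-sided, adjusted after Benjamini and Hochberg across all tested probe sets in each of 5 comparisons, and ± is the standard error. Both rest on an estimate of the spread between these samples that the 4 groups share, so it mixes the OE lines with the ZH11 replicates. With 2 arrays a group, the precision is limited. The procedure was tested on simulated data.

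The members and lists were chosen with earlier results of these data known. Named probe sets were those with a gene name, the 10 largest ratios, the 5 highest normal means, up to 5 per direction called in each genotype comparison, and those nearest the thresholds; the others were named to account for the set. The replicate number pairs the lines in OE, where the difference between replicates before cold had a correlation of 0.121 with that after cold; in ZH11 it was -0.0203 and the numbers pair nothing. Alternatives are given in the closing section; 1 probe set per gene was added after seeing the data.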

Additional observations from a re-analysis of the deposited data

Results flagged for a closer look

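Tests of the difference between the cold changes, OE minus ZH11, called 5 of the 52 probe sets, by an interaction term past an adjusted p of 0.05 in limma. That is 9.62% of the set, beside 1.14% of all tested probe sets. Among other probe sets with a lowest normal signal of at least 500, it was 10.3% for ratios of 3 to 4 and 10% for ratios of 4 to 6. The log2 differences were 1.10 for LOC4343987, 0.99 for LOC4324425, 0.90 for LOC4352881, 0.80 for LOC4336197 and 0.59 for LOC4340892, each positive. Their limma adjusted p-values ran from 0.0137 to 0.0285. The cause was not tested. Groups of 2 arrays are too small for a check of single arrays that stand apart.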

How the results depend on the processing

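Numbers called among the 52 were recomputed under 17 alternatives. Before cold 1 was called, and 2 with the replicate block within OE; leaving out 1 array gave 1 to 2. After cold 19 were called, and leaving out 1 array gave 12 to 23. For the difference between the cold changes, 5 were called, and leaving out 1 array gave 0 to 4. The replicate block over all arrays gave 1, 19 and 5, and that within OE gave 21 after cold and 7 for the difference of changes. The size of the set was 122 at a ratio of at least 4, 33 at a floor of 1000 and 106 with the rule applied to ZH11 arrays alone; leaving out 1 array gave 53 to 62. The other settings left these 4 counts within 1.5 times the reported ones: pseudocounts of 1 and 64, no filter, a filter at the 60th percentile, quantile normalization, median centring, eBayes without a trend, 1 probe set per gene, and for the size of the set a ratio of 8, a floor of 250 and OE arrays alone. Each of the 21 tests of a named probe set kept its direction under all 17 alternatives, and of the 357 values 307 kept their call and 50 lost it. Leaving out an array removes a degree of freedom and leaves a group of 1, whose spread is taken to be that of the others. Why single arrays end calls was not tested otherwise.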
